A study of Mus musculus with 18 samples.

Results

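The transcripts described here are those of 10 genes that build or steer the actin cytoskeleton, out of 55450 genes in the deposited table. They are the 4 actin genes Actb, Actg1, Acta2 and Actg2, the gene of the transcription factor SRF (Srf), and 5 genes whose proteins bind actin or drive its contraction (Tagln, Myl9, Cnn1, Tpm1 and Vcl). They were found by symbol, and the set was put together after Actb had been seen to be lower under CYC065. The CYC065 values of these genes are therefore a description of what chose them, and no test was made of them. All 10 genes reached a summed count of 30 in at least 1 of the libraries of every comparison, the minimum that 14754 genes reached in at least 1 of the 6 libraries. Genes that reached it in a comparison are called the genes tested in that comparison.

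The cells were ED1SQ4, a murine lung cancer cell line that came from lung tumors of mice carrying a cyclin E transgene, so each group rests on a single line. CYC065 is a small molecule that inhibits CDK2 and, less potently, CDK9. Cells received vehicle or 0.5 µM CYC065 for 72 hours, and after staining with Vybrant DyeCycle Green they were sorted on DNA content into 2N (diploid) and 4N (polyploid) populations. RNA was also sequenced from unsorted cells of each treatment, and the labels do not say whether those cells had been stained. DNA content alone does not separate polyploid cells from diploid cells that have replicated their DNA before division, so a 4N gate can hold both. The table has 18 columns, 3 for each of the 6 conditions. The 3 columns of a condition carry a single library number, and their whole counts varied as repeated sampling of a single library would, with a chi-square per degree of freedom of 0.991 to 1.02 as compared with at least 14.5 between conditions. For genes with a fractional count in any column as a class, which includes Actb, Actg1 and Acta2, it was 4.35 to 7.60. Columns of that class varied more than counting error allows, so counting intervals of genes in it can be too narrow. The value was not computed for Actb, Actg1 or Acta2 alone. The 3 columns of a condition were summed and counted as 1 library, which leaves no replicate of any condition. The 8 comparisons draw on the same 6 libraries and are not independent of each other. No difference below has a p-value, every interval covers counting error alone, and a gene is called higher or lower when its log2 ratio passes 1 in size, which is a 2-fold difference.

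The summed libraries held 54750203 to 62795507 counts, and the share of mitochondrial transcripts ran from 0.380% in vehicle 2N cells to 1.69% in unsorted CYC065 cells. The lung label was checked against markers. Of the 6 lung markers, Nkx2-1, Sftpc, Scgb1a1 and Napsa had at most 3 counts in every library. So had the epithelial genes Epcam and Cldn7. Sftpb had more than 3 counts in 4N CYC065 cells alone. The remaining lung marker had more than 3 counts in every library. It reached the count minimum in unsorted and 2N CYC065 cells, with log2 ratios of CYC065 to vehicle of 2.90 and 1.57. The 6 lung markers summed to 0.105 to 0.745 CPM (counts scaled to a library total of 1000000). The 8 epithelial markers summed to 0.593 to 1.61 CPM. The 10 fibroblast and mesenchymal markers summed to 19666 to 31587 CPM. The 8 smooth muscle markers summed to 128 to 242 CPM, mostly from Smtn, with the muscle potassium channel subunit Kcnmb1 and the SRF coactivator Myocd at or under 3 counts in every library. Ptprc and Cd3e, markers of leukocytes, had at most 3 counts in every library, but Cd68, which macrophages are known for, was present at 4.07, 3.45 and 3.63 CPM in unsorted, 2N and 4N vehicle cells and at 10.9, 23.7 and 18.9 CPM in CYC065 cells (log2 ratios 1.42, 2.78 and 2.38). Its part in the results was not tested. The 4 endothelial markers summed to 0.541 to 1.93 CPM.

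Actin monomers assemble into filaments, and β-actin and γ-actin, the products of Actb and Actg1, make up most of the actin of non-muscle cells. Acta2 and Actg2 encode the smooth muscle actins, and Acta2 is also made by activated fibroblasts. SRF binds a DNA element called the CArG box. It works with MRTF coactivators, which are held in the cytoplasm by monomeric actin and reach the nucleus as monomers are used up, and with TCF cofactors of the ELK family, which answer to ERK signaling. Cytoskeletal genes are the known targets of the MRTF arm, the actin genes and Srf itself included, and immediate early genes are those of the TCF arm.

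Actb, the gene of β-actin, was among the most abundant transcripts of these cells. Its level was 7618 CPM in unsorted vehicle cells and 3150 CPM in unsorted CYC065 cells. In sorted cells it was 11418 CPM in vehicle 2N, 5071 CPM in CYC065 2N, 12568 CPM in vehicle 4N and 4782 CPM in CYC065 4N. Each CYC065 library lay below each vehicle library, and the share of all genes for which this holds was not computed. The spread between the 3 columns of a library was at most 0.451% of its level. The log2 ratio of CYC065 to vehicle was -1.27 in unsorted cells (counting interval -1.28 to -1.27), -1.17 in 2N cells (-1.18 to -1.16) and -1.39 in 4N cells (-1.40 to -1.39). These are levels lower by 2.42-fold, 2.25-fold and 2.63-fold. By rank, Actb was the fifth most abundant gene in unsorted vehicle cells and number 15 in unsorted CYC065 cells, number 3 and number 8 in 2N cells, and number 2 and number 8 in 4N cells. CPM is a share of a library, and the amount of RNA per cell was not measured. In RNA of many cells, fewer cells that make a transcript and less of it per cell cannot be told apart.

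Actg1, the gene of γ-actin, followed the same order of libraries. It stood at 2747 CPM in unsorted vehicle cells, 4006 CPM in vehicle 2N and 4702 CPM in vehicle 4N. Under CYC065 it stood at 1274 CPM, 1649 CPM and 1539 CPM in the same populations, again with no overlap between treatments. Its log2 ratios were -1.11, -1.28 and -1.61. The ratio of Actb to Actg1 counts stayed between 2.47 and 3.11 in the 6 libraries. Reads of this pair are partly shared with other genes. Of the 50-base stretches in Actg1 transcripts, 37.4% occur in another gene on the same strand, mostly in pseudogenes such as Gm12715, and for Actb the share is 9.12%. All counts of the non-member genes that share such stretches were then added, not only reads of those stretches. With them the log2 ratio in unsorted cells was -0.88 for Actg1 and -1.16 for Actb. The counts added were not lower under CYC065 in unsorted cells. With them Actg1 had 179240 counts in unsorted vehicle and 93373 in unsorted CYC065 cells, against 157439 and 70121 without them. Gm12715 alone had 2381 and 928 counts. The separate gene Lrrc58, which shares 6.14% of the stretches of Actb, had 19319 and 22269. That is most of what was added to Actb, and the amount added to Actg1 was nearly the same. The ratios with added counts thus include the level of another gene and do not measure reads shared with pseudogenes.

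**Figure D1:**
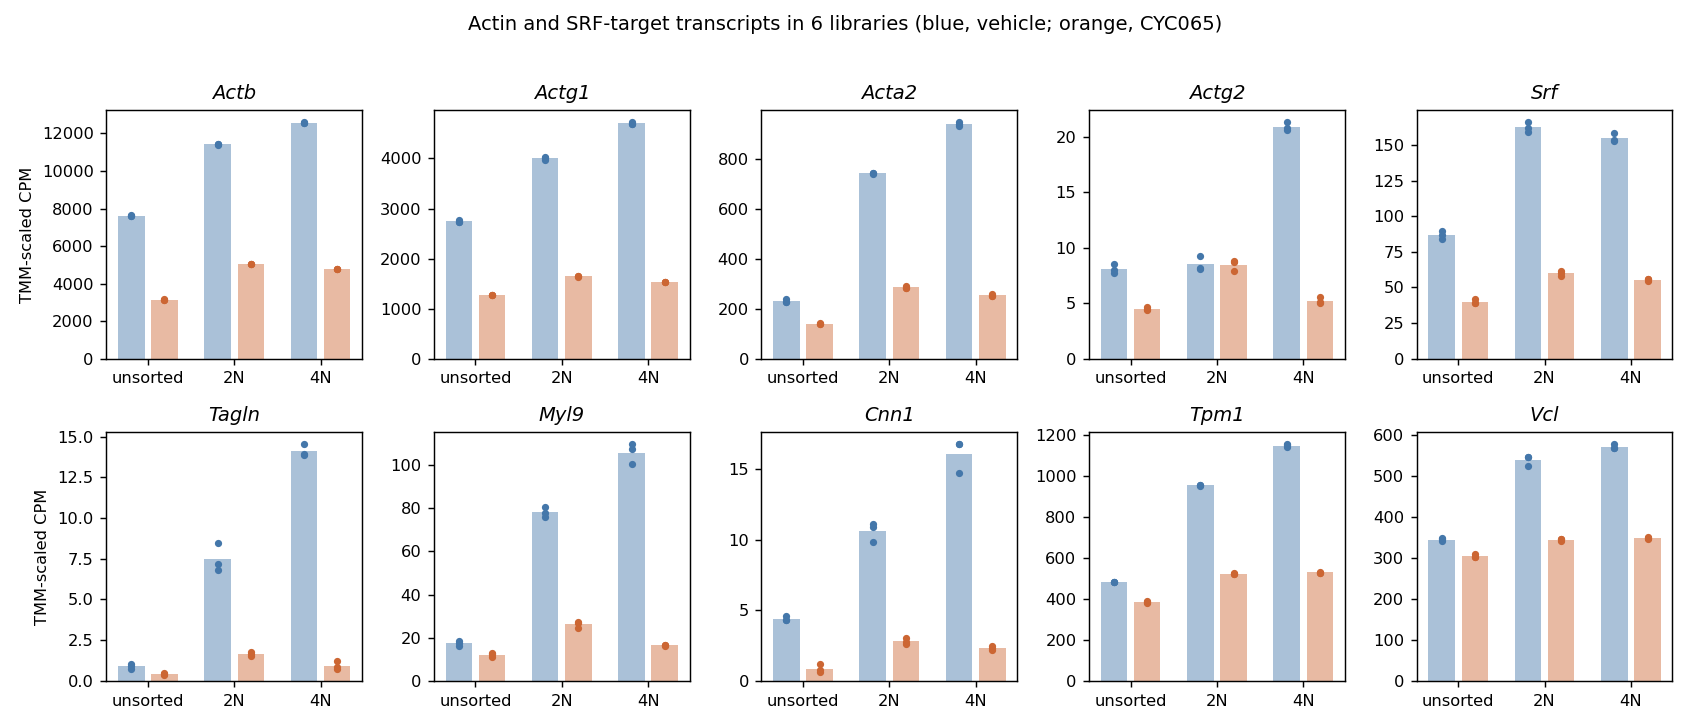
Levels of the 10 genes in the 6 libraries. Bars give TMM-scaled CPM of the summed library (vertical axis, from 0, its own scale for each gene), points give the 3 columns of that library, blue is vehicle and orange is CYC065, and populations run along the horizontal axis. Actb stood at 7618, 11418 and 12568 in the vehicle libraries and at 3150, 5071 and 4782 in the CYC065 libraries, and the unsorted bar is the lowest of the 3 populations within each treatment for all 10 genes.

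Acta2, the gene of smooth muscle α-actin, varied more between populations than the cytoplasmic actins did. In vehicle cells it was 231 CPM unsorted, 743 CPM in 2N and 940 CPM in 4N. Under CYC065 it was 140 CPM, 285 CPM and 253 CPM. The sorted CYC065 libraries therefore lay above the unsorted vehicle library, and treatments separated only within a population. The log2 ratio of CYC065 to vehicle was -0.72 in unsorted cells, short of the fold threshold, -1.38 in 2N cells and -1.89 in 4N cells. Acta2 counts were 3.03% of Actb counts in unsorted vehicle cells and 7.48% in vehicle 4N cells.

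Actg2, the gene of smooth muscle γ-actin, was the one actin for which no difference was detectable in 2N cells at this depth. It had 8.52 CPM in vehicle 2N and 8.46 CPM in CYC065 2N, with a log2 ratio of -0.01 and a counting interval of -0.19 to 0.17. In 4N cells it was 20.9 CPM under vehicle and 5.23 CPM under CYC065 (log2 ratio -2.00). In unsorted cells the levels were 8.06 CPM and 4.52 CPM (-0.83). Its vehicle 4N library stood apart from the other 5, which ran from 4.52 to 8.52 CPM. Together the 4 actins took 1.03%, 1.57% and 1.78% of all counts in unsorted, 2N and 4N vehicle cells, and 0.430%, 0.749% and 0.709% under CYC065. The 3 remaining actin genes, Acta1, Actc1 and Actbl2, did not reach the count minimum in any comparison.

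Srf, the transcription factor gene, was at 86.7 CPM in unsorted vehicle cells, 162 CPM in vehicle 2N and 155 CPM in vehicle 4N. Under CYC065 it was at 40.1 CPM, 59.9 CPM and 55.6 CPM. No CYC065 value reached the lowest vehicle value. The log2 ratios were -1.11 in unsorted cells, -1.44 in 2N and -1.48 in 4N, with counting intervals of -1.19 to -1.04, -1.497 to -1.38 and -1.54 to -1.43. No stretch of 50 bases in Srf occurs in another gene.

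Tagln, which encodes the actin-bundling protein transgelin (SM22α), had the widest range. It had 52 counts (0.907 CPM) in unsorted vehicle cells, 420 counts (7.47 CPM) in vehicle 2N and 827 counts (14.1 CPM) in vehicle 4N. Under CYC065 it had 24 counts (0.436 CPM), 96 counts (1.64 CPM) and 63 counts (0.931 CPM). The log2 ratio was -3.91 in 4N cells (-4.31 to -3.55) and -2.18 in 2N cells (-2.52 to -1.86). In unsorted cells it was -1.04, with an interval of -1.82 to -0.33, and the call did not hold in 6 of 10 alternatives, namely DESeq2 size factors (-0.98), a prior count of 2 (-0.996), without replicate 3 of each condition (-0.91), both edgeR fits (-0.98) and DESeq2 (-0.96) on the 18 columns. Of the 50-base stretches of Tagln, 58.3% also occur on the opposite strand, in the antisense gene Gm48529 and in Pcsk7. Gm48529 had 53 to 72 counts in the 6 libraries, and whether the counting used strand is not given in the sources used here.

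Myl9, a regulatory light chain of myosin II, and Cnn1, which encodes the actin-binding protein calponin, were also lower under CYC065 in every population. Myl9 was at 17.4 CPM, 78.0 CPM and 106 CPM in unsorted, 2N and 4N vehicle cells. With CYC065 it was at 12.1 CPM, 26.3 CPM and 16.5 CPM, which gives log2 ratios of -0.52, -1.57 and -2.68. Cnn1 was at 4.41 CPM, 10.6 CPM and 16.1 CPM in vehicle cells and at 0.872 CPM, 2.80 CPM and 2.33 CPM in CYC065 cells. Its log2 ratios were -2.33, -1.92 and -2.78, and its lowest library held 48 counts. For Myl9 the sorted vehicle libraries stood apart from the other 4, and for Cnn1 all vehicle libraries lay above all CYC065 libraries.

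Tpm1, which encodes a tropomyosin that lines actin filaments, and Vcl, which encodes the focal adhesion protein vinculin, had small ratios in all 3 populations as compared with most other members. Tpm1 was at 484 CPM, 954 CPM and 1148 CPM in unsorted, 2N and 4N vehicle cells and at 385 CPM, 523 CPM and 529 CPM under CYC065. Its log2 ratios were -0.33, -0.87 and -1.12, and only that of 4N cells passed the fold, which it did not do with scaling by library size alone (-0.98). Vcl was at 345 CPM, 541 CPM and 572 CPM in vehicle cells and at 305 CPM, 345 CPM and 349 CPM in CYC065 cells. Its log2 ratios of -0.18, -0.65 and -0.71 did not pass the fold in any population. A share of 25.1% of Vcl's 50-base stretches also occurs, on the opposite strand, in Ap3m1.

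**Figure D2:**
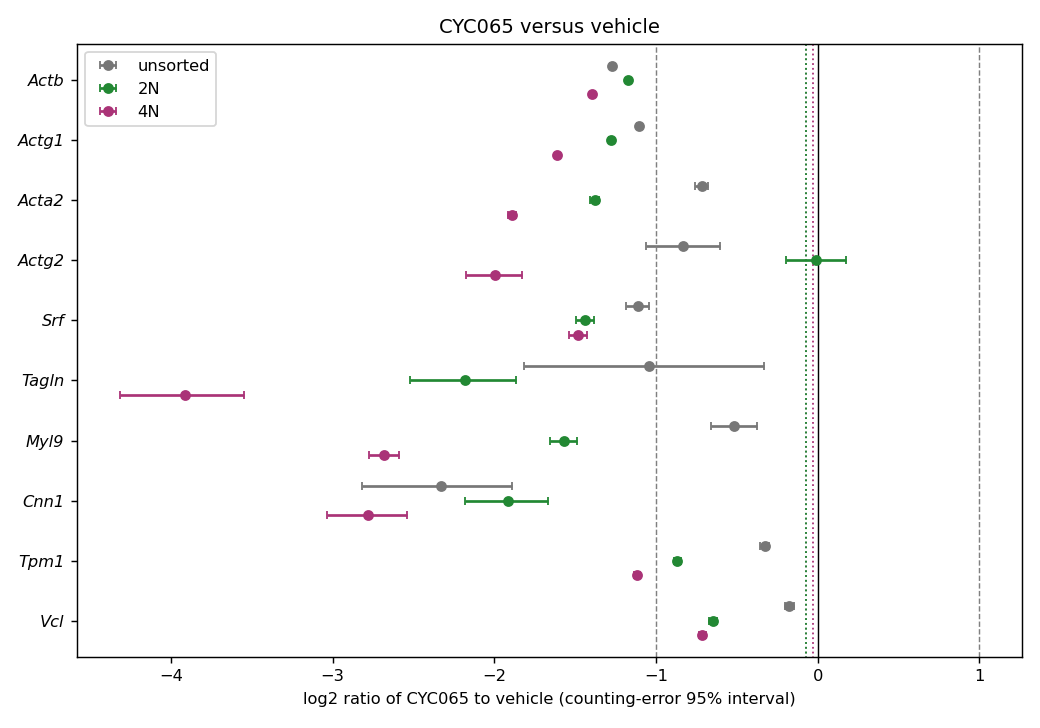
CYC065 as compared with vehicle for each gene. The horizontal axis is the log2 ratio with its 95% interval for counting error, colors mark unsorted, 2N and 4N cells, dashed lines mark log2 ratios of -1 and 1, and dotted lines mark the median of all genes tested. In 4N cells 9 of 10 genes lie beyond -1, with Tagln at -3.91, and Actg2 in 2N cells lies at -0.01.

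Read as a set, 5 of the 10 genes were called lower in unsorted cells, where 13.9% of 14076 genes tested were. In 2N cells 7 were called lower, against 13.3% of 14083 genes, and in 4N cells 9 were, against 11.4% of 14177. No member was called higher. The median log2 ratio of the members was -0.94, -1.33 and -1.75 in the 3 populations, and that of all genes tested was -0.07, -0.07 and -0.03. The separation of all CYC065 from all vehicle libraries in Actb, Actg1, Srf and Cnn1 has no share of all genes beside it. Since the set was chosen from this contrast, nothing is read from that separation or from these shares. On a scale per kilobase of the principal transcript, which allows levels of different genes to be set side by side, the order in vehicle 4N cells was Actb (6546 CPM per kb), Actg1 (2409), Tpm1 (605), Acta2 (462), Vcl (109), Myl9 (93.7), Srf (59.3), Actg2 (15.7), Tagln (8.84) and Cnn1 (6.76). In CYC065 4N cells Tagln, at 0.584 CPM per kb, was below Cnn1 at 0.980, and Tpm1, at 279, remained above Acta2 at 125.

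Promoter sequences show how the members differ in the element that SRF binds. RefSeq promoters on GRCm38.p6, from 250 bases before to 50 bases after the start of a gene, were at hand for 7 members, that is, all but Actb, Actg2 and Tagln. The CArG box was searched on both strands. It occurred in 4 of the 7 (57.1%), namely Actg1, Myl9, Srf and Vcl, and in 535 of the 32851 promoters in the table (1.63%). The members were picked as actins and contractile targets of SRF, so this share describes the choice and nothing is read from it. Srf has 2 boxes, at positions -82 and -62 from its start, and only 6 promoters of the table (0.0183%) have at least 2. Acta2 and Tpm1 hold matches with 1 mismatch, a looser pattern that, exact boxes included, 21.1% of all promoters hold, and Cnn1 holds neither. The stretches of 4 members that carry exact boxes or, for Acta2, near matches are shown with the boxes and near matches in capitals, 5′ to 3′ on the strand of the gene, because Actg1 and Srf were lower by more than 2-fold in all 3 populations, Acta2 varied most with sorting among these 4 and Vcl had the smallest CYC065 ratios among them.
Actg1 (chr11:120348566-120348595, minus strand): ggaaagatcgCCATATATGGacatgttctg
Srf (chr17:46556182-46556254, minus strand): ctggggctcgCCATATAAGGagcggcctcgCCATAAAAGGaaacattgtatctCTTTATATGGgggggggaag
Vcl (chr14:20929161-20929190, plus strand): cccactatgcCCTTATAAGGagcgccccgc
Acta2 (chr19:34255388-34255467, minus strand): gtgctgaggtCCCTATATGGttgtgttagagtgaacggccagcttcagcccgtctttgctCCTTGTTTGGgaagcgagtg
The third capital run of Srf and both runs of Acta2 are the near matches. In 4N cells the log2 ratios of CYC065 to vehicle of the members with an exact box were -2.68 (Myl9), -1.61 (Actg1), -1.48 (Srf) and -0.71 (Vcl). Those of the members with none in this window were -2.78 (Cnn1), -1.89 (Acta2) and -1.12 (Tpm1). A link between the box and the ratio was not tested. These are matches of letters, and binding was not measured.

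The actin genes and Srf lie on 5 chromosomes in mm10 with the GENCODE M21 annotation, Actb at chr5:142903115-142906754 and Actg1 at chr11:120345690-120348542, both on the minus strand. Acta2 is at chr19:34241090-34255590, Actg2 at chr6:83512905-83536265 and Srf at chr17:46548329-46556175, also on the minus strand. Of the other members, 3 share chromosome 9, where Tagln is at chr9:45929619-45936058, Cnn1 at chr9:22099216-22109630 and Tpm1 at chr9:67022590-67049406. Myl9 is at chr2:156775420-156781658 and Vcl at chr14:20929398-21033676. Each is annotated as protein coding, with 2 to 21 transcripts, and the table gives 1 value per gene, so isoforms of Tpm1, which has 21, were not resolved.

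The comparison of 4N with 2N cells asked whether the members moved with DNA content. Under vehicle, 9 of the 10 genes were higher in 4N cells, though only Actg2 passed the fold (log2 ratio 1.295, 1.14 to 1.45), where 0.996% of 13358 genes were called higher. Among all genes, 51.8% had a ratio above 0. Tagln followed at 0.92, Cnn1 at 0.60, Myl9 at 0.44, Acta2 at 0.34, Tpm1 at 0.27, Actg1 at 0.23, Actb at 0.14 and Vcl at 0.08, and Srf was at -0.07. Under CYC065 8 of the 10 were lower in 4N cells, against 46.3% of 14173 genes, and no member passed the fold, where 2.01% of genes were called lower and 1.56% higher. Tagln was at -0.81, Actg2 at -0.69, Myl9 at -0.67, Cnn1 at -0.26, Acta2 at -0.17, Srf at -0.11, Actg1 at -0.10 and Actb at -0.08, while Tpm1 and Vcl were both at 0.02. Without replicate 1 of each condition the value of Tagln was -1.08.

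In 7 members, therefore, 4N lay above 2N under vehicle and below it under CYC065, a pattern that 21.1% of 14474 genes showed. The difference between the CYC065 changes of 4N and 2N cells put the size on this. It was -1.99 for Actg2 (-2.24 to -1.74), -1.73 for Tagln (-2.22 to -1.24) and -1.11 for Myl9 (-1.24 to -0.99), and these 3 were called lower, where 3.5% of 14474 genes were. It was -0.86 for Cnn1, -0.51 for Acta2, -0.33 for Actg1, -0.25 for Tpm1, -0.22 for Actb, -0.07 for Vcl and -0.04 for Srf. Srf was the member whose interval for this difference (-0.12 to 0.04) included 0. The median over the members was -0.42 and over all genes 0.02. This difference is built from the CYC065 ratios, the contrast from which the set was chosen. Nothing is therefore read from these shares and medians.

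**Figure D3:**
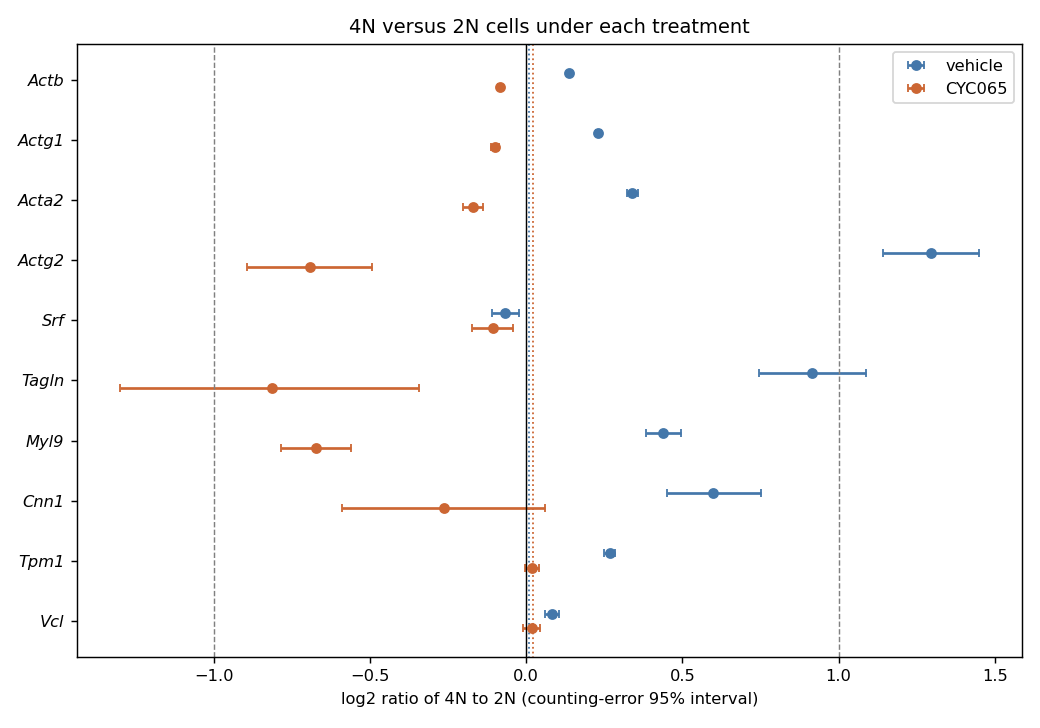
4N cells as compared with 2N cells, under vehicle (blue) and under CYC065 (orange). The horizontal axis is the log2 ratio with its 95% interval for counting error, dashed lines mark -1 and 1, and dotted lines mark the median of all genes tested. Actg2 goes from 1.295 under vehicle to -0.69 under CYC065 and Tagln from 0.92 to -0.81, while Srf lies at -0.07 and -0.11.

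Unsorted cells were also compared with the mean of the 2N and 4N cells of the same treatment. Within each treatment all 10 members were lower in the unsorted library than in either sorted library, which held for 44.8% of 13805 genes under vehicle and for 43.3% of 14386 genes under CYC065. Under vehicle the log2 ratio was -3.56 for Tagln (-3.96 to -3.16), -2.40 for Myl9, -1.86 for Acta2, -1.60 for Cnn1 and -1.12 for Tpm1. These 5 passed the fold, where 3.43% of genes were called lower. The other 5 lay between -0.87 and -0.65, with Srf and Actg2 at -0.87, Vcl at -0.69, Actg1 at -0.66 and Actb at -0.65. The value of Actg2 rests on its vehicle 4N library (20.9 CPM). Its unsorted and 2N vehicle libraries were close, at 8.06 and 8.52 CPM (462 and 479 counts). Under CYC065 Cnn1 (-1.55) and Tagln (-1.54) passed the fold, where 3.32% of genes were called lower. With scaling by library size alone Acta2 (-1.13) and Myl9 (-1.01) passed it as well, as compared with -0.94 and -0.82, and so did Acta2 (-1.01) with sorted and unsorted libraries scaled separately. The remaining values were -0.65 for Actb, -0.60 for Actg2, -0.53 for Srf, -0.45 for Tpm1, -0.32 for Actg1 and -0.18 for Vcl. For Tagln, Myl9, Acta2, Tpm1, Vcl and Actg2 the gap between unsorted and sorted vehicle libraries was thus wider than the CYC065 ratio in unsorted cells. For Actg2 the 2 values were close (-0.87 and -0.83). Actb, Actg1, Srf and Cnn1 showed the reverse order. The dye, the sorting, the time from culture to lysis and the cells that neither gate keeps cannot be told apart in this design. The share of mitochondrial counts moved with it, at 1.04% in unsorted vehicle cells against 0.380% and 0.614% in sorted ones, and its part in these values was not tested.

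**Figure D4:**
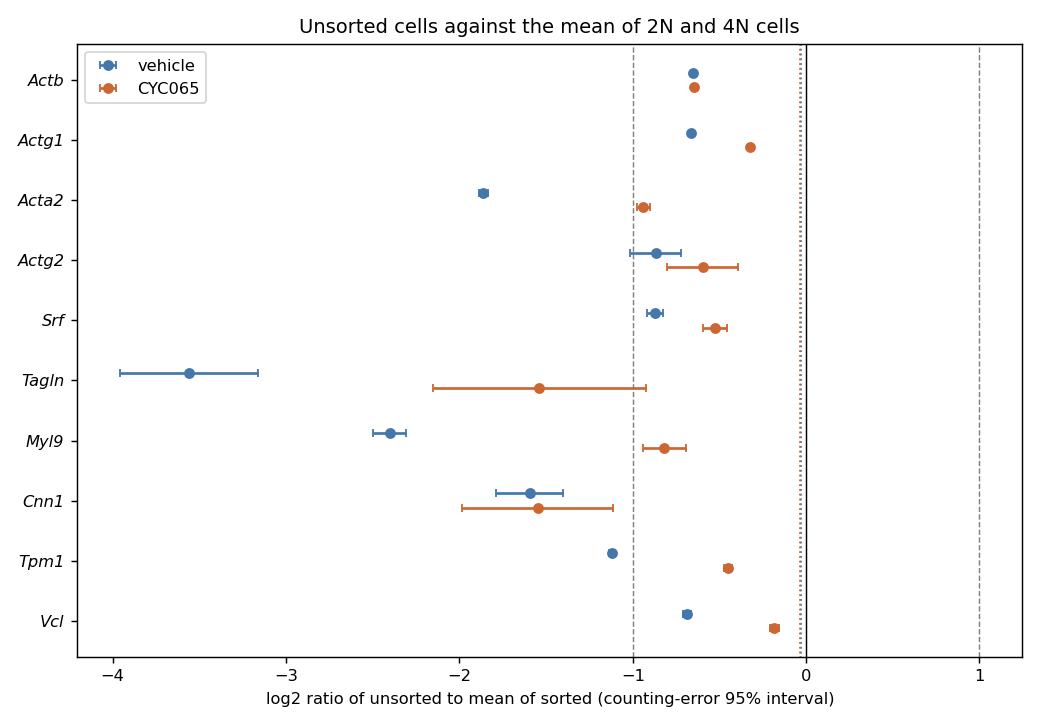
Unsorted cells as compared with the mean of 2N and 4N cells, under vehicle (blue) and under CYC065 (orange). The horizontal axis is the log2 ratio with its 95% interval for counting error, dashed lines mark -1 and 1, and dotted lines mark the median of all genes tested. The points of all 10 genes lie below 0, from -3.56 for Tagln under vehicle to -0.18 for Vcl under CYC065.

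Other targets of the MRTF arm were divided, and their counts stand beside the 13.9%, 13.3% and 11.4% of all genes called lower and the 11.7%, 14.9% and 14.1% called higher in unsorted, 2N and 4N cells. Of 31 further cytoskeletal targets, 3 were called lower and 4 higher with CYC065 in unsorted cells, 7 lower and 1 higher in 2N cells, and 12 lower and 0 higher in 4N cells, with medians of -0.19, -0.70 and -0.81. Genes were named by the size of their mean ratio in 2N and 4N cells. Tpm2, a second tropomyosin, was at -2.59, -2.62 and -2.85 in unsorted, 2N and 4N cells. Tgfb1i1, a focal adhesion adaptor, was at -2.36, -2.75 and -2.83, and Ankrd1, an ankyrin repeat protein gene, at -0.77, -1.71 and -2.04. At the other end, ratios of the 31 ran up to 2.82, 1.59 and 0.93 in unsorted, 2N and 4N cells. Tgfb1i1 had 2862, 5582 and 6154 counts in the vehicle libraries and 535, 865 and 996 in the CYC065 libraries. In unsorted as compared with sorted vehicle cells 9 of the 31 were lower past the fold, where 3.43% of all genes were, and none was higher, with Ankrd1 at -2.33.

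Targets of the TCF arm went the other way. Of 8 immediate early genes tested, 5 were called higher under CYC065 in unsorted cells, 6 in 2N cells and 4 in 4N cells, and none was called lower. Among all genes 11.7%, 14.9% and 14.1% were called higher in these comparisons. The medians were 1.29, 1.59 and 1.177. Fos, a subunit of AP-1, had 122, 1041 and 552 counts in unsorted, 2N and 4N vehicle cells and 1708, 6085 and 3419 counts in CYC065 cells (log2 ratios 3.86, 2.49 and 2.42). Egr2, a zinc finger transcription factor, had ratios of 0.79, 2.22 and 2.27, and Nr4a1, an orphan nuclear receptor, had 2.01, 2.52 and 1.95. Under CYC065, 6 of these 8 genes were lower past the fold in 4N than in 2N cells, where 2.01% of all genes were, with a median of -1.06. Under vehicle all 8 were also below 0, where 48.2% of all genes were. Their median there was -0.77, and 1 was lower past the fold, where 1.67% of all genes were. The difference between the CYC065 changes of 4N and 2N cells had a median of -0.33. None of the 8 passed the fold in it, where 3.5% of all genes were lower and 3.59% higher. Egr4 had no count in any library, which allows up to 3 counts.

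Of the known cofactors of SRF, none of 5 tested was called in any of the 8 comparisons. Among all genes 25.6%, 28.1% and 25.5% were called in either direction with CYC065 in unsorted, 2N and 4N cells. In the other comparisons 2.67% to 10.7% were. With 5 genes, nothing is read from this count. Mrtfa, which encodes an MRTF coactivator, had log2 ratios of CYC065 to vehicle of -0.38, -0.58 and -0.36 in unsorted, 2N and 4N cells, Elk1 had 0.11, 0.37 and 0.39, and Elk3 had -0.36, -0.32 and -0.43.

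**Figure D5:**
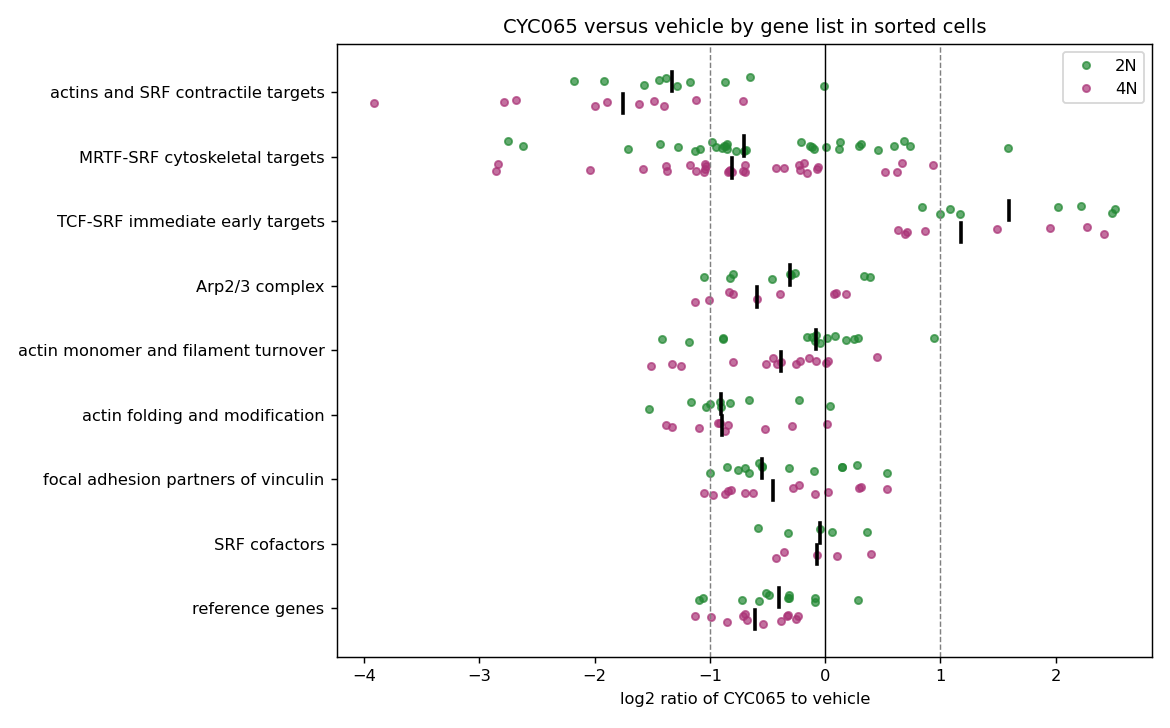
CYC065 as compared with vehicle in 2N (green) and 4N (purple) cells by gene list. Each point is a gene with at least 30 summed counts in 1 of the 4 sorted libraries, the horizontal axis is its log2 ratio, black bars are medians, vertical scatter is for legibility, and dashed lines mark -1 and 1. The members have medians of -1.33 and -1.75, the 8 immediate early genes 1.59 and 1.177.

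Counts for genes that handle actin protein are to be read beside the same shares of all genes called lower, 13.9%, 13.3% and 11.4% in unsorted, 2N and 4N cells. The shares called higher were 11.7%, 14.9% and 14.1%. The actin folding list, which includes the CCT chaperonin subunits that fold newly made actin, had 10 genes tested, of which 3, 4 and 3 were called lower in unsorted, 2N and 4N cells, with medians of -0.79, -0.91 and -0.89. Cct6a was at -1.49, -1.53 and -1.38, Cct8 at -1.06, -1.16 and -1.33, and Tcp1 at -0.998, -1.04 and -1.10. Of 15 genes of monomer and filament turnover, 1, 2 and 3 were called lower and 1, 0 and 0 higher. Pfn1, the gene of the monomer-binding protein profilin, was at -1.13, -1.41 and -1.33, Wdr1, which helps cofilin take filaments apart, was at -0.91, -1.18 and -1.51, and Cfl2, the gene of a cofilin, was at -0.53, -0.88 and -1.25. Of the 9 genes of the Arp2/3 complex, which starts filament branches, 0, 1 and 2 were called lower. Actr3 was at -0.80, -1.05 and -1.13, Arpc4 at -0.89, -0.82 and -1.01, and Actr2 at -0.69, -0.80 and -0.80. Of 14 focal adhesion partners of vinculin, 1 was called, Tln1, the gene of talin, in 4N cells (-1.05). Tln2 was at -0.998 in 2N cells and Fermt2 at -0.97 in 4N cells, both short of the fold. Among smooth muscle genes, which are known to be made together with Acta2, Tagln and Cnn1 in muscle, 4, 5 and 5 of 8 were tested in unsorted, 2N and 4N cells, of which 1, 2 and 2 were called higher and 1, 0 and 0 lower. Synpo2 was called higher in each population (1.48, 1.71 and 1.38), and Smtn (-0.62, -0.79 and -0.86) and Mylk (0.37, 0.45 and 0.40) were not called.

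Actb is widely used to scale measurements of other transcripts, and a primer pair for murine β-actin was among the assays of the study. Set against 12 genes of the same use, Actb had the lowest CYC065 ratio in each of the 3 populations as counted. In unsorted and 2N cells the order rests on a narrow margin. Once the counts of genes that share 50-base stretches with Actb were added, Actb was at -1.16 in unsorted cells, where Ppia was at -1.22. In 2N cells Actb was then at -1.11, where Hprt was at -1.09. Most of the counts added were those of the separate gene Lrrc58, which shares 6.14% of the stretches of Actb. Lrrc58 had 19319 counts in unsorted vehicle cells and 22269 in unsorted CYC065 cells. The reference genes were given no such addition, though 17.3% of Ppia's stretches also occur in other genes. The medians of the 12 were -0.71, -0.40 and -0.61, and the value of Actb minus that median was -0.57, -0.77 and -0.78 on the log2 scale, a 1.48-fold, 1.70-fold and 1.72-fold difference. The nearest reference genes were Ppia in unsorted cells (-1.22) and Hprt in 2N and 4N cells (-1.09 and -1.13). B2m was the highest in each population, at 0.11, 0.29 and -0.24. Gapdh was at -0.84, -0.57 and -0.70, Tbp at -0.49, -0.32 and -0.38, and Rplp0 at -0.43, -0.09 and -0.25. Between 4N and 2N cells the value of Actb minus the median of the 12 was -0.01 under vehicle and -0.08 under CYC065. In unsorted as compared with sorted cells Actb was again lower than each of the 12, with differences from their median of -0.60 under vehicle and -0.38 under CYC065.

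The genes most like Actb over the 6 libraries were sought by the root mean square difference of log2 CPM after each gene had been centered on its own mean. Among 6450 genes with at least 1000 counts in every library they were Mthfd1, an enzyme of folate metabolism (0.075), Prmt5, an arginine methyltransferase gene (0.084), Impdh2, an enzyme of guanine nucleotide synthesis (0.086), Wdr43 (0.088) and Nop2 (0.095), both of which act in ribosome production. Srf was at 0.107 and Actg1 at 0.114, and the median gene was at 0.667. Mthfd1 stood at 121, 180 and 180 CPM in unsorted, 2N and 4N vehicle cells and at 47.8, 69.7 and 73.0 CPM in CYC065 cells. For Acta2, among 10805 genes with at least 300 counts in 1 library, the nearest was Npnt, the gene of the matrix protein nephronectin (0.121), followed by Atp6v0e2 (0.201), Ankrd1 (0.225), Hbegf (0.226) and Lrp2 (0.251), against a median of 0.931. Npnt stood at 85.4, 251 and 299 CPM in vehicle cells and at 52.3, 97.7 and 105 CPM in CYC065 cells. Among the members Myl9 was nearest to Acta2 (0.270), and Actb was at 0.417. These measures rest on 6 libraries and say which patterns were alike.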

How the data were processed

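RNA of 6 conditions was sequenced on an Illumina platform from stranded total RNA libraries after ribosomal RNA depletion. The authors trimmed reads with Cutadapt 1.18, aligned them with STAR 2.7.0f to mm10 with GENCODE M21 and deposited expected counts per gene from RSEM 1.3.1, in 18 columns, per the labels and the processing notes of the submitters. Reads that fit several genes are split there by estimate, so values need not be whole. Actb and Actg1 were fractional in all 18 columns and Acta2 in 3. The study's own test was DESeq2. Gene IDs were paired with symbols in the deposited table.

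The members and gene lists were chosen with earlier results of these data known. Columns of a condition were summed, scaled with TMM (edgeR 4.0.16, R 4.3.3) and turned into CPM. Log2 ratios used a prior count of 0.5. Genes whose counts added up to 30 or more in 1 of the libraries compared were held against a log2 ratio of 1, and 95% intervals were exact binomial (Clopper-Pearson) or, for means and differences of changes, normal on the log2 scale. These cover counting error only. All members were named, and from each list at most the 3 genes with the largest mean ratio in sorted cells among those with at least 300 counts, and from the reference list any gene. Some list results are not reported here. For promoters, RefSeq sequences on GRCm38.p6 were searched. The steps were tested on simulated data. Alternatives were other scalings, priors and count minimums, each column left out, and edgeR quasi-likelihood tests and DESeq2 1.42.0 on the 18 columns, whose p-values compare columns of single libraries and were given no weight.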

Additional observations from a re-analysis of the deposited data

Results flagged for a closer look

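In 6 members the library of 4N cells lay above that of 2N cells under vehicle and below it under CYC065, with counting intervals that did not include 0 under either treatment. The difference between the CYC065 changes of 4N and 2N cells was -0.22 for Actb, -0.33 for Actg1, -0.51 for Acta2, -1.99 for Actg2, -1.73 for Tagln and -1.11 for Myl9 on the log2 scale. With 1 library per condition this difference was not tested, and it is built from the CYC065 ratios, the contrast from which the set was chosen. Counting intervals of Actb, Actg1 and Acta2 can be too narrow. For Actb and Actg1 the 4N to 2N ratios were within 0.23 of 0 under both treatments, so these 2 rest on small ratios at great depth. Cnn1 had the same directions, but its interval under CYC065 (-0.59 to 0.06) included 0.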

How the results depend on the processing

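Over the alternatives run, 77 of 80 values of the members (10 genes in 8 comparisons) kept their sign, the exceptions being Actg2 with CYC065 in 2N cells and Tpm1 and Vcl in 4N as compared with 2N cells under CYC065, all near 0, and 74 of 80 kept their side of the fold. No called value changed sign. Actb moved by more than the spread between columns but kept its call throughout. In unsorted, 2N and 4N cells it was -1.32, -1.03 and -1.25 with library size scaling, -1.21, -1.14 and -1.41 with DESeq2 size factors, -1.25, -1.20 and -1.42 with sorted and unsorted libraries scaled separately, -1.17, -1.08 and -1.35 with DESeq2 on the 18 columns, and -1.16, -1.11 and -1.33 with genes sharing 50-base stretches added, an alternative chosen after seeing the data. With edgeR on the 18 columns it was -1.21, -1.08 and -1.31, both without and with the replicate block. The numbers name parts of 1 library and pair nothing; the block moved the count of genes called for the difference between the CYC065 changes from 542 to 530, where the summed libraries gave 1026 and DESeq2 343. Leaving out a numbered column gave -1.27 to -1.27, -1.16 to -1.15 and -1.39 to -1.37 for Actb, and 0 to 1 members past the fold for 4N as compared with 2N cells under CYC065. Unsorted as compared with sorted CYC065 cells had 4 members past the fold with library size scaling, 3 with separate scaling and 2 as reported. That scaling shifted the median of all genes by 0.14 in 2N and 4N cells and by -0.19 for unsorted against sorted CYC065 cells, and the share of higher genes among those called went from 52.8% to 62.9%, from 55.3% to 66.5% and from 50.3% to 28.7%. Separate scaling shifted the vehicle comparison of unsorted and sorted cells by -0.12 and that share from 67.9% to 57.3%. With no filter on low counts the genes past the fold numbered 10318, 11663 and 10870 for CYC065 in unsorted, 2N and 4N cells (3603, 3959 and 3619 with the filter), 5439 and 7190 for 4N against 2N under vehicle and CYC065 (356 and 506), 9512 for the difference of changes, and 6960 and 6502 for unsorted against sorted (1472 and 962). With a minimum of 100 they were 120 and 215 for 4N against 2N, 307 for the difference, and 892 and 479 for unsorted against sorted. Depth limits Tagln and Cnn1, whose lowest libraries held 24 and 48 counts.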
